A study of Homo sapiens with 16 samples.

Results

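Octanoic acid (OA) is a medium-chain fatty acid, and the data were examined here for stretches of the genome that carried a trimethyl mark on lysine 4 of histone H3 (H3K4me3) upon OA exposure and not in the vehicle control. Peaks of the 3 Vehicle and 3 OA H3K4me3 libraries on chromosomes 1 to 22, X and Y were merged wherever they shared at least 1 bp, which gave 28846 merged regions. A region with a peak in at least 2 of the OA libraries and in none of the Vehicle libraries is here called OA-only. There were 1442 OA-only regions. They made up 7.70% of the 18734 regions with a peak in at least 2 of the 6 libraries, which are the regions that could have met the rule. Of these, 345 (1.84%) had a peak in all 3 OA libraries and 1097 in 2. The mirror rule, a peak in at least 2 Vehicle libraries and in no OA library, was met by 372 regions (1.99%), of which 15 (0.0801%) had a peak in all 3 Vehicle libraries. The regions were chosen by these calls, so the counts, fold enrichments and lengths in the 6 libraries are descriptions and carry no test.

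The cells were MCF-10A, an established line of nontransformed human breast epithelial cells, exposed for 24 hours to 5 mM OA or to PBS as the vehicle. Chromatin was profiled by CUT&RUN, in which an antibody guides a nuclease to the marked nucleosomes and the released fragments are sequenced. Triplicate cultures were profiled for H3K4me3 and for trimethylated lysine 27 of the same histone (H3K27me3). A further 2 libraries titled positive control were taken as H3K4me3 in untreated cells, and 2 titled negative control as nonspecific IgG in untreated cells. None of these entered the rule. All libraries come from 1 cell line, and the files hold peaks and no read totals.

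H3K4me3 is deposited by SET1 and MLL family methyltransferases and is found mostly around active or poised start sites, where unmethylated CG-rich sequence recruits these enzymes. H3K27me3 is deposited by Polycomb repressive complex 2 at silent genes. Promoters of developmental and neuronal genes often lie in CpG islands that carry H3K27me3 in cells where the gene is not expressed, at times together with H3K4me3.

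The 6 sequences shown here, 200 bases each from hg38, come from OA-only regions called in all 3 OA libraries. They were chosen to show a pair of near-identical promoters, a CG-rich and a CG-poor promoter, a site far from any coding start site, and one copy of a duplicated noncoding start site. Capitals mark CG dinucleotides. Each is the stretch nearest the summit with at most 30 bases of annotated UTR, written 5′ to 3′ on the strand of the gene that starts there, or on the plus strand for the site near C18orf21.
TPPP, chr5:692649-692848, minus strand: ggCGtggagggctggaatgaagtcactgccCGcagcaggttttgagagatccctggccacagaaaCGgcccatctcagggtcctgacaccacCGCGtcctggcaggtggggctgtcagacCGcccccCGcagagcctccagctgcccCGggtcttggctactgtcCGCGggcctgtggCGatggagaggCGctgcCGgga
ZDHHC11B, chr5:784095-784294, minus strand: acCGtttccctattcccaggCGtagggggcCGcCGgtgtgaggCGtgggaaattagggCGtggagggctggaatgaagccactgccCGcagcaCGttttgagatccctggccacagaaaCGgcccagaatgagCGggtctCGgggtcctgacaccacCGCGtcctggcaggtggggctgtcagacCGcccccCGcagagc
NIBAN1, chr1:184974187-184974386, minus strand: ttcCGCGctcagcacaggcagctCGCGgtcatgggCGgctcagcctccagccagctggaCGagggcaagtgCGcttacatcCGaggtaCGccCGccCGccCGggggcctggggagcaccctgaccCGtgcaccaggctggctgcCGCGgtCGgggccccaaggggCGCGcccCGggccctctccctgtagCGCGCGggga
PLPP2, chr19:290377-290576, minus strand: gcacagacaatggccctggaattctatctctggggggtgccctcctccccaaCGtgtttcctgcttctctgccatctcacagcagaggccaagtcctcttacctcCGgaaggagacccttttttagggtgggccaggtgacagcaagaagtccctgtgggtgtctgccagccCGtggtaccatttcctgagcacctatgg
C18orf21, chr18:35950273-35950472, plus strand: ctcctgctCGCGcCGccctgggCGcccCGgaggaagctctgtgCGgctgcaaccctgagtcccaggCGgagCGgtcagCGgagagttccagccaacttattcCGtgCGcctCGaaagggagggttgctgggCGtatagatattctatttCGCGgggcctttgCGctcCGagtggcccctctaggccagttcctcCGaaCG
ENSG00000284624, chr3:125766867-125767066, plus strand: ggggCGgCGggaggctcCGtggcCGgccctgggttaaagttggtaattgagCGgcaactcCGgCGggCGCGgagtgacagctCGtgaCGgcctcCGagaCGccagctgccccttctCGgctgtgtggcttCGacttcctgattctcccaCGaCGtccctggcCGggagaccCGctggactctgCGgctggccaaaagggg
The NIBAN1 window held 22 CG dinucleotides and the C18orf21 window 19, against 3 in the PLPP2 window. The TPPP and ZDHHC11B windows aligned over 133 bases, of which 130 were identical, with an unbroken shared run of 58 bases.

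The libraries differed in how many peaks they gave and how long these were. The Vehicle libraries had 19953, 16381 and 16086 peaks and the OA libraries 17988, 17975 and 21033. Vehicle replicate 3 had the shortest peaks, with a median of 559 bp against 736 to 1028 bp in the other 5 libraries. As a check of the line, H3K4me3 peaks lay at the start sites of KRT5, KRT17, CDH3, EGFR and ITGA6 in all 6 libraries, at CDH1 and EPCAM in 5, at TP63 in 3 and at KRT14 in 2 Vehicle libraries. None of the 7 markers of leukocytes, endothelium, muscle or liver had a peak in any library.

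The calls were not evenly shared between the OA libraries. OA replicate 3 had a peak in 1417 of the OA-only regions (98.3%), replicate 2 in 1197 (83.0%) and replicate 1 in 615 (42.6%). The pair of replicates 2 and 3 alone accounted for 827 regions (57.4%), replicates 1 and 3 for 245 and replicates 1 and 2 for 25. Among the Vehicle-only regions, replicate 3 had a peak in 100 of 372 (26.9%).

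The count of OA-only regions therefore moved with the libraries used. Without OA replicate 3 there were 378 OA-only regions beside 711 Vehicle-only ones, and without OA replicate 2 there were 605 beside 472. Without Vehicle replicate 1 there were 2403 beside 44. When 1 library was left out of each group, so that both sides rested on 2 libraries, OA-only regions outnumbered Vehicle-only regions in 8 of 9 subsets. The exception left out both replicates 3 and gave 409 OA-only regions beside 595 that were Vehicle-only. With the 16086 strongest peaks of every library, there were 902 OA-only regions, 289 of them called in all 3 OA libraries, beside 425 Vehicle-only regions, 26 of them called in all 3 Vehicle libraries.

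**Figure D1:**
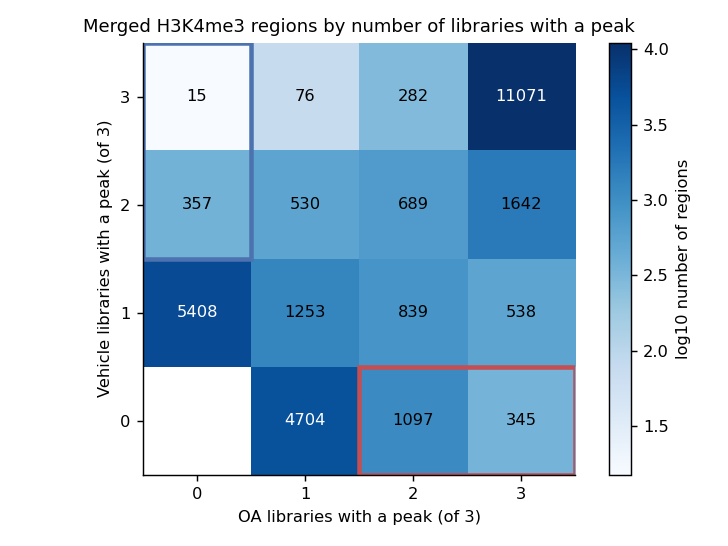
Number of merged H3K4me3 regions by the number of OA libraries (horizontal axis) and Vehicle libraries (vertical axis) with a peak, with the colour giving log10 of the number. The red frame holds the 1097 and 345 OA-only regions and the blue frame the 357 and 15 Vehicle-only regions, beside 11071 regions called in all 6 libraries.

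OA-only regions were weak peaks. The fold enrichment is the caller's ratio of the reads at the summit to the local background, and the number of reads piled up at the summit was solved from the deposited fold and p-value. The median fold enrichment of OA-only regions was 5.12 in OA replicate 1, 5.93 in replicate 2 and 7.40 in replicate 3. Regions called in all 6 libraries had medians of 7.18, 9.93 and 9.45 in the same libraries. The median pile-up at OA-only regions was 12, 11 and 20 reads, against 39, 92 and 100 reads at regions called in all 6. In Vehicle replicates 1, 2 and 3 the regions called in all 6 had 82, 119 and 33 reads, so Vehicle replicate 3 was the shallowest by this measure. At the 345 regions called in all 3 OA libraries the pile-up was 13, 15 and 33 reads and the fold 5.34, 6.90 and 8.87. No more than 4.45% of OA-only regions in any OA library had a smaller p-value than the median peak of that library. Vehicle-only regions were of like strength, with median pile-ups of 13, 11 and 12.5 reads in the Vehicle libraries. With so few reads at a summit, the absence of a peak in a Vehicle library says that the mark was not detectable there at that depth.

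The limit of the rule lay among weak calls, and some regions left out had high −log10 q values. Among regions called in exactly 2 OA libraries, those nearest the limit were at ISLR2, with a fold of 3.58 and a −log10 q of 2.01 in OA replicate 1, and near TTLL10 and PLEKHM2, each with a −log10 q of 2.03 in OA replicate 2. Just outside lay a region at H2BC3, a histone gene, with folds of 4.01, 3.81 and 4.77 in the OA libraries and a single Vehicle call of 3.78 with a −log10 q of 2.04. The start site of MDK, which encodes the growth factor midkine, had folds of 4.81, 7.70 and 9.70 with OA and missed the rule through 1 Vehicle call of 3.81. Other regions stayed outside because a single OA library called them. One lay 130848 bp from CWH43, with a −log10 q of 40.7 and 131 reads at the summit in OA replicate 1. It was 85953 bp from any start site and 5349 bp from a region called in all 6 libraries. Another lay at LARP1, an RNA-binding regulator of translation, with a −log10 q of 57.9 and 182 reads in OA replicate 3. It lay only 121 bp from a region called in all 6 libraries. A second MDK region, chr11:46381738-46382188, met the rule with folds of 5.77 and 4.62 in OA replicates 2 and 3.

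The rule left out NGFR, the low-affinity neurotrophin receptor. Its region had folds of 6.27, 10.9 and 9.61 in the OA libraries and 4.75 in Vehicle replicate 1, so it was not OA-only. AGR2, a disulfide isomerase of secretory epithelium, was OA-only with folds of 9.08 and 6.81 in OA replicates 2 and 3. PARM1 had peaks in all 3 OA and 2 Vehicle libraries. Its folds were 6.56, 8.69 and 9.08 over 1148 to 1631 bp with OA. In Vehicle replicates 1 and 2 they were 5.68 and 3.94 over 302 and 219 bp. NTRK2, a receptor kinase, had peaks in 1 OA and 2 Vehicle libraries. The peak in OA replicate 3 had a fold of 6.72 and 37 reads over 1682 bp. Those in Vehicle replicates 1 and 3 had folds of 5.49 and 4.14 and 9 and 5 reads over 240 and 171 bp. The stress genes ATF3, ATF4 and DDIT3 and the serine synthesis enzyme PHGDH each had a region called in all 6 libraries and no OA-only region.

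OA-only regions lay at start sites less often than H3K4me3 regions as a whole and more often than the other regions not called in all 6 libraries. Within 1 kb of an annotated start site were 827 OA-only regions (57.4%, Wilson 95% interval 54.8 to 59.9%, counting error only). The share was 77.4% for those called in all 3 OA libraries, 51.0% for those called in 2, 27.4% for Vehicle-only regions and 76.5% for all 18734 regions. It was 48.7% for the 6221 regions that were neither OA-only nor called in all 6 libraries, Vehicle-only ones included. Regions called in all 6 libraries reached 94.6%. Within 3 kb the share of OA-only regions was 67.0%.

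By gene class, 619 OA-only regions (42.9%) lay within 1 kb of a protein-coding start site, against 66.8% of all regions. A further 116 (8.04%) lay at start sites of long noncoding RNAs (lncRNAs) alone, against 6.39% of all regions. Another 92 (6.38%) lay only at start sites of other kinds, against 3.35%. These were pseudogenes, small RNA genes and transcripts of coding genes not annotated as coding, as at BBC3. The remaining 615 (42.6%) lay over 1 kb from any start site, against 23.5%. Most of the lncRNAs carried only an identifier, 73 of 116 (62.9%), against 608 of 1197 (50.8%) for all lncRNA-only regions.

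The summits fell in an exon in 30.2% of OA-only regions, in an intron of a protein-coding gene in 36.1%, in an intron of a lncRNA gene in 7.91% and outside these genes in 25.8%. The same shares over all regions were 41.7%, 36.5%, 4.40% and 17.4%. Coding sequence held 7.14% of the summits and UTRs 13.9%. For those called in all 3 OA libraries the exon share was 37.4% and the share outside genes 21.4%. Where the summit lay within 2 kb of a coding start site, 65.4% of 680 OA-only regions had it downstream, with a median offset of 100 bp into the gene, against 78.4% and 124 bp over all regions.

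OA-only regions were about as long as the other regions not called in all 6 libraries, which had a median of 595 bp. Their median length was 575 bp, 788 bp for those called in all 3 OA libraries and 525 bp for those called in 2, against 1209 bp for all regions and 368 bp for Vehicle-only regions. The longest, 3015 bp, lay at WNT11, a WNT ligand. A window of 400 bp around the summit was called CpG-island-like where its GC content was at least 50% and its ratio of observed to expected CG was at least 0.6. By this measure 44.3% of OA-only regions and 63.5% of those called in all 3 OA libraries were CpG-island-like, beside 63.5% of all regions, 35.0% of the 6221 other regions and 7.26% of Vehicle-only regions. Within 1 kb of start sites the share was 61.5%, against 77.5% of all regions there, and over 1 kb away it was 21.1%, against 17.9%.

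**Figure D2:**
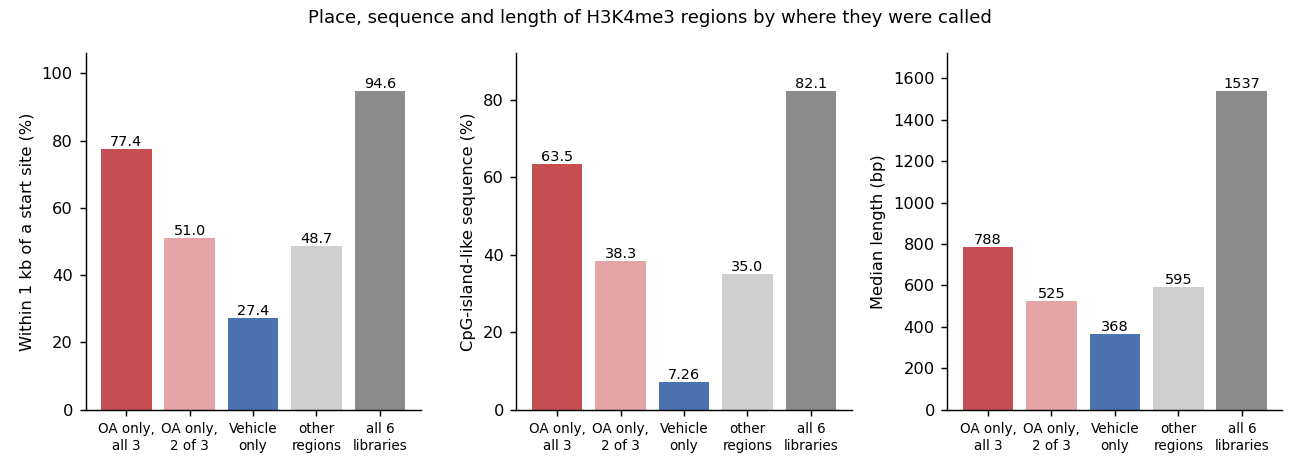
Bars give the share of regions within 1 kb of a start site (%), the share with CpG-island-like sequence (%) and the median length (bp) for 345 OA-only regions called in all 3 OA libraries, 1097 called in 2, 372 Vehicle-only regions, 6221 regions in neither the OA-only class nor called in all 6 (Vehicle-only included) and 11071 called in all 6. Regions called in all 3 OA libraries stand between the last 2 classes on the first measure, at 77.4% against 48.7% and 94.6%.

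Short consensus motifs were counted in the same 400 bp windows on both strands, and a match is a description of the letters alone. The SLUG E-box CAGGTG was in 33.4% of OA-only windows and 30.4% of all windows. The AP-1 site, TGACTCA or TGAGTCA, was in 15.5% of OA-only windows and 9.86% of all windows. It was in 25.2% of OA-only windows over 1 kb from a start site, against 25.5% of all windows there, and in 8.34% of those within 1 kb, against 5.05%. The share was 8.70% for regions called in all 3 OA libraries and 25.5% for Vehicle-only regions. The ZEB1 core CAGGTA shares its first 5 letters with the SLUG E-box. The E2A E-box CAGCTG was in 24.9% against 22.1%, the ZEB1 core in 15.6% against 14.7%, the CHOP-ATF4 composite TGATGCAA in 1.53% against 0.785% and the cyclic AMP element TGACGTCA in 0.693% against 1.10%.

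The strongest OA-only promoters included the microtubule protein TPPP and the acyltransferase gene ZDHHC11B, which lie next to each other on chromosome 5. The TPPP region, chr5:692562-694116, covered a start site of the gene with folds of 8.96, 18.4 and 11.8 in OA replicates 1, 2 and 3 and pile-ups of 37, 136 and 103 reads. The ZDHHC11B region, chr5:783896-785448, had folds of 8.27, 15.9 and 10.5. These 2 regions were copies of each other, with 96.3% identity over 1494 aligned bases. Of the words of 50 bases in the 400 bp around their summits, 23.1% and 33.9% occurred more than once in the genome, so reads from one copy could be placed on the other. How the authors placed such reads was not given in the sources used here.

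The other 8 of the 10 strongest promoters had almost no repeated sequence around the summit, at most 0.855% of the words. NIBAN1, a stress-responsive regulator of translation, had folds of 6.43, 8.53 and 9.59 at chr1:184973540-184974786, with the summit in an exon. PLPP2, a phosphatase of lipid phosphates, had folds of 6.87, 11.3 and 10.8 at chr19:289923-291402. MED12L, a subunit of the Mediator complex, had folds of 6.83, 10.1 and 10.4. GIPR, the receptor of an incretin hormone, had folds of 6.51, 9.72 and 8.64. PRPH, the intermediate filament peripherin of peripheral neurons, had folds of 6.65, 10.5 and 8.86. MTMR11 had 5.90, 10.3 and 8.30, PTPDC1 had 7.39, 9.20 and 11.7, and the kinase gene STK32A had 5.80, 10.1 and 8.18. OA replicate 1 gave the lowest fold at every one of the 10, and none of the 10 had a peak in an untreated H3K4me3 library.

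Away from start sites, the strongest OA-only region called in all 3 OA libraries was chr18:35949946-35950560, between genes and 22065 bp from the start of C18orf21, with folds of 8.13, 12.4 and 12. A region 19309 bp from KCNK18, a potassium channel gene, had 7.34, 10.5 and 10.9. One within the PITX3 gene, which encodes a homeobox factor, had 6.38, 7.29 and 8.02. At lncRNA start sites the strongest was ENSG00000290692 next to the sulfotransferase gene SULT1A3, with folds of 8.34, 11.4 and 14.1. It was 99.9% identical to a second OA-only region at ENSG00000290679 next to SULT1A4, so these 2 calls cannot be told apart. LINC00173 had 6.47, 11.1 and 10.4 in unique sequence. When peaks up to 1000 bp apart were joined, MTMR11 among the promoters and ENSG00000290692 and ENSG00000272679 among the lncRNAs were no longer OA-only.

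At most of the protein-coding genes concerned, the OA-only region was the only H3K4me3 region of the gene. The 619 regions touched start sites of 638 genes, and 451 of these genes (70.7%) had no other region called in at least 2 libraries. A region called in all 6 libraries lay within 1 kb of a start site of 136 (21.3%), whether the same start site or another. Some lay close beside the OA-only region, with a region called in all 6 at 212 bp from that of SLC1A4 and 302 bp from that of MERTK. For Vehicle-only regions the order was the opposite, with 31 of 45 genes (68.9%) also holding a region called in all 6. These 2 sets were chosen by the calls that define them and the difference was not tested.

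Gene lists were read against all protein-coding start sites, where 619 of 12507 regions (4.95%) were OA-only. The highest shares were in lists drawn up around neuronal functions, though not every gene on them is neuronal, TRPV3 for one. Among regions at neurotransmitter receptor and synapse genes 21 of 60 (35.0%) were OA-only, among neurotrophins and their receptors 3 of 9, among clustered protocadherins 3 of 12, among ion channels 13 of 60 (21.7%) and among axon guidance genes 11 of 62 (17.7%). Together these 5 lists held 51 OA-only regions of 203 (25.1%), with calls in all 3 OA libraries at 21 of them. They held 0 Vehicle-only regions, but such regions were rare at coding start sites as a whole, at 45 of 12507. A count of 0 among 203 is therefore no sign of a difference. In the synapse list and in the ion channel list 33.3% of the regions were called in all 6 libraries, against 78.2% over all coding start sites. Among the regions not called in all 6, 42.1% of the regions on the 5 lists were OA-only, against 22.7% over all coding start sites. The lists were chosen with earlier results of these data known.

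The synapse regions were carried by receptors and by vesicle proteins. GRIK2, a kainate receptor subunit, had folds of 7.81, 8.39 and 10.9 in the 3 OA libraries. The serotonin receptor HTR1D had 6.23, 5.51 and 11.6 and the adrenergic receptor ADRA1D 4.66, 7.03 and 14.3. The GABA receptor gene GABRB2, the adhesion genes NLGN1 and NRXN3 and the scaffold gene SHANK2 were called in 2 OA libraries. Synaptotagmin SYT17 had 4.85, 12.1 and 11.4, and synaptophysin, SYP, had 7.68 and 6.54 in replicates 2 and 3. Of the 21 regions 19 were CpG-island-like and 1 had a peak in an untreated library.

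The ion channel regions included 8 called in all 3 OA libraries. KCNH3, a potassium channel of the brain, had folds of 6.89, 11.9 and 12.2, and HCN2, a pacemaker channel, had 6.68, 11.1 and 10. The sodium channel SCN8A had 6.11, 6.96 and 9.19, and TRPV3, a cation channel of keratinocytes, had 6.88, 10.3 and 11.0. Of the neurotrophin group, NRTN, a ligand of the GDNF family, had 6.27, 11.0 and 8.55. Among axon guidance genes the semaphorin SEMA6D had 5.57, 6.12 and 7.36 and the ephrin receptor EPHA10 had 7.69, 5.51 and 14.3.

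Developmental transcription factors followed with 17 OA-only regions of 129 (13.2%). HOXB9 had folds of 5.09, 11.6 and 11.1, FOXA2, a pioneer factor of endoderm, 5.91, 6.59 and 5.39, and the LIM homeobox gene LHX9 4.70, 8.48 and 7.11. Of the regions at matrix and integrin genes 12 of 94 (12.8%) were OA-only, among them COL6A1 with 6.32, 8.57 and 9.31. Among regions not called in all 6 libraries, the shares were 34.7% for the transcription factors and 25% for the matrix and integrin genes, against 22.7% over all coding start sites. Solute carriers stood at 15 of 215 (6.98%) and fatty acid oxidation and PPAR genes at 3 of 43 (6.98%). ACSL1, which activates long-chain fatty acids for oxidation or storage, was the one fatty acid gene called in all 3 OA libraries, with 4.72, 5.98 and 7.66. Zinc finger genes stood below the background, with 11 of 499 (2.2%), and 15.7% of those not called in all 6 libraries. Smaller groups held 4 of 49 regions at cytokine and chemokine genes, CXCL8 among them, and 3 of 38 at WNT ligands and receptors. Notch genes held 2 of 22 (NOTCH3 and HEY2) and growth factor receptor kinases 2 of 23 (KIT and MERTK). Keratins held 1 of 9, KRT222, beside 2 Vehicle-only regions. Of the regions not called in all 6 libraries, less than 22.7% were OA-only in the cytokine, WNT, Notch and kinase lists. WNT genes stood at 18.8% and kinases at 18.2%. Solute carriers and fatty acid genes, at 27.3% each, and keratins, at 1 of 3, lay above 22.7%. These shares were not tested.

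Several groups held no OA-only region. There was none among 22 regions at EMT transcription factors and cadherin targets, 26 at integrated stress response genes, 37 at sterol and fatty acid synthesis genes, 25 at H3K4 methyltransferases and demethylases, 9 at stem cell markers, 9 at epidermal differentiation genes and 78 at ribosomal protein genes. In these lists 44.4 to 96.2% of the regions were called in all 6 libraries. The regions not called in all 6 numbered 7, 2, 5, 3, 5, 5 and 3, in the same order. Over all coding start sites 4.95% of regions, and 22.7% of those not called in all 6, were OA-only. With so few regions, a count of 0 in any single list says little about its genes, and no test was made.

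**Figure D3:**
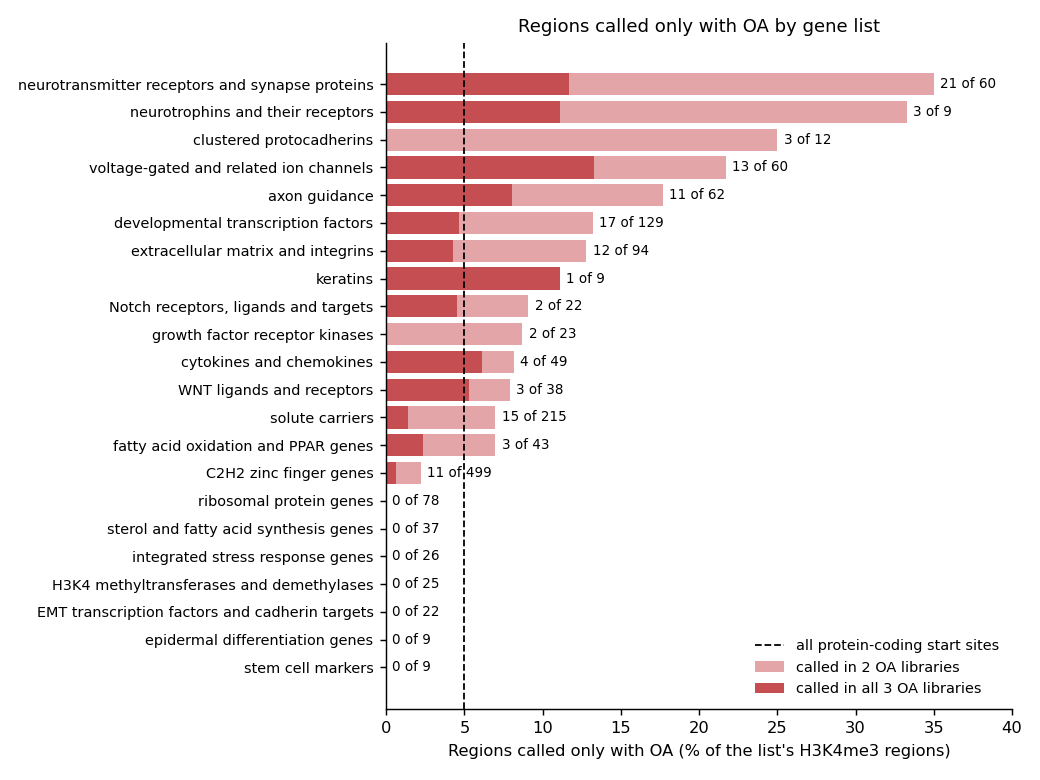
Share of the H3K4me3 regions of each gene list shown (%, horizontal axis) that was OA-only, in dark red for those called in all 3 OA libraries and pale red for those called in 2, with counts at the bars. Synapse, neurotrophin, protocadherin and ion channel lists lie between 21.7% and 35.0%, and the dashed line marks 4.95%, the share over all protein-coding start sites.

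Leaving out chromosome Y, the share of regions that was OA-only ran from 5.04% on chromosome 21 (13 of 258) to 11.2% on chromosome 22 (51 of 454, Wilson 95% interval 8.65 to 14.5%). On chromosome Y, 0 of 52 regions were OA-only and 6 (11.5%) were Vehicle-only. How reads were placed there was not tested, so no share is read from these 52. Of 2407 windows of 1 Mb with a region, 923 held an OA-only region, and 593 of these held exactly 1. The median distance to the nearest other OA-only region was 383 kb, and 336 (23.3%) had another within 100 kb. Over all regions, which were 18734 and so lay closer together, the nearest other region was a median of 20.8 kb away and 86.0% had one within 100 kb. The windows with the most, 6 each, lay on chromosomes 2, 12, 17, 19 and 22, among 23 to 53 regions.

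A window with few regions, most of them OA-only, lay on chromosome 4 around PDGFRA, the receptor of platelet-derived growth factor, and KIT, the stem cell factor receptor. There 5 of the 6 regions between 54 and 55 Mb that at least 2 libraries called were OA-only (83.3%), the highest share of any of 1381 windows with 5 or more regions. They followed each other over 568 kb with no other region called in at least 2 libraries between them. The first, chr4:54091704-54092519, lay 7644 bp from the homeobox gene GSX2 with folds of 6.69, 12.1 and 10.5. The next 3 lay 11.5 kb and 1.30 kb upstream and 4.48 kb downstream of the PDGFRA start site, and their folds in OA replicate 3 were 6.97, 12 and 9.85. The KIT region had folds of 5.17 and 10.4 in OA replicates 1 and 3. The sixth region, at CHIC2, was called in all 6 libraries, with folds of 8.44, 11.5 and 15.5 in the Vehicle and 6.86, 9.95 and 9.41 in the OA libraries.

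**Figure D4:**
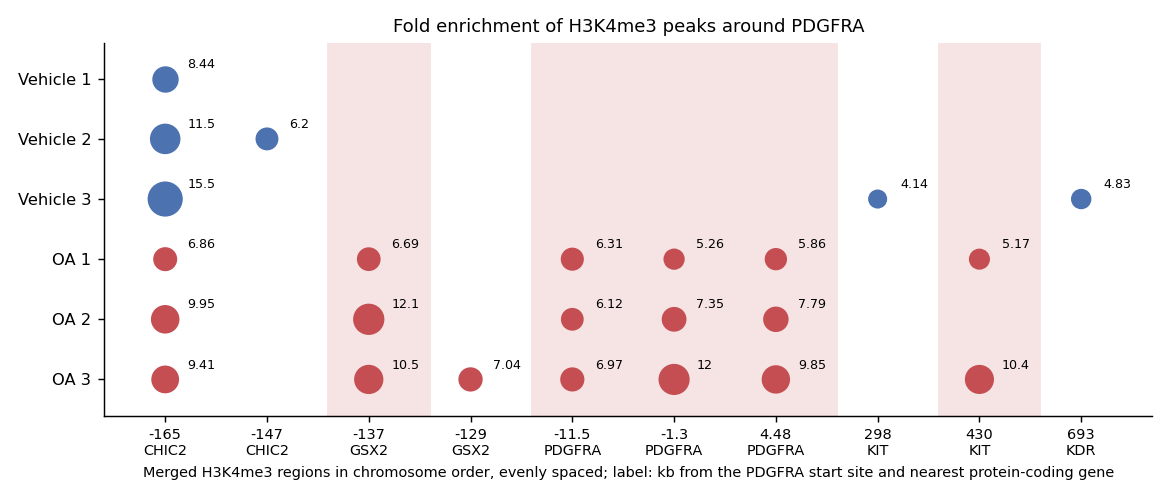
Fold enrichment of the H3K4me3 peak (dot area and printed value) in each library (vertical axis) for the 10 merged regions of the window around PDGFRA, evenly spaced in chromosome order and labelled by kb from the PDGFRA start site and the nearest coding gene. The 5 shaded OA-only regions have dots in OA libraries alone, while the region at CHIC2 has a dot in all 6.

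A second run of 5, over 1229 kb on chromosome 16, ended in 3 regions at or near ZNF423, a zinc finger gene of neural and adipocyte precursors, and none of the 5 was called in all 3 OA libraries. Within 38.0 kb on chromosome 1, 4 OA-only regions followed each other, 1 at the start of the lncRNA ENSG00000272438 and 3 at or within SAMD11. In all there were 118 runs of 2 or more, with 257 of the 1442 regions.

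A part of the OA-only regions lay in duplicated sequence. In 79 (5.48%) at least 50% of the 50-base words around the summit occurred more than once in the genome, against 7.46% of all regions and 16.1% of Vehicle-only regions. Leaving these out kept 1363 OA-only regions, of which 58.6% lay within 1 kb of a start site. Alignment of OA-only regions that shared such a word linked 44 of them into 15 groups of near-identical copies, which were described after their values were seen.

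The largest dispersed group held 8 OA-only regions on chromosomes 3, 4, 7, 8, 11 and 12, each on the start site of a noncoding gene, 6 of them transcribed pseudogenes and 2 lncRNAs. Their sequences were 92.7 to 97% identical in pairs. ENSG00000284624, the copy on chromosome 3 shown among the sequences, had folds of 6.32, 9.62 and 11.5, and ENSG00000284687 on chromosome 12 had 5.10, 7.03 and 9.07. The other 6 were called in OA replicates 2 and 3, with folds between 5.51 and 14.0. Only 3 further regions of the 18734 shared a 50-base word with this group, and none of them was Vehicle-only or called in all 6 libraries. At ENSG00000284624, 31.9% of the words were repeated, and the region was no longer OA-only where peaks had to cover at least 50% of it. Since the copies can exchange reads, these 8 are not independent calls. A group of 8 on the centromere of chromosome 1 was of another kind, since 334 further regions shared its words, 30 of them Vehicle-only and 49 called in all 6. Pairs of 100% identity included copies in the 5S ribosomal RNA array on chromosome 1, a U2 snRNA pair on chromosome 17 and the DUX4 repeat array on chromosome 4.

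Libraries that the rule had not used bore on the regions as follows. Peaks of the 2 untreated H3K4me3 libraries overlapped 21 (1.46%) and 18 (1.25%) OA-only regions, 49 (13.2%) and 32 (8.60%) Vehicle-only regions, and 56.5% and 50.8% of all regions. Both untreated libraries had a peak in 8 OA-only regions, which lay in or near the centromere models, 6 on chromosome 1 and 1 each on chromosomes 13 and 14. IgG peaks overlapped 13 OA-only regions (0.902%) in each IgG library, against 4.17% and 3.66% of all regions. The untreated libraries held 12924 and 11242 peaks, fewer than any Vehicle or OA library.

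H3K27me3 peaks lay at OA-only regions more often than at other H3K4me3 regions, taken over all places. They overlapped 117, 107 and 99 OA-only regions in the Vehicle libraries and 125, 54 and 17 in the OA libraries. The shares of OA-only regions were higher than those of regions called in all 6 libraries in 6 of 6 H3K27me3 libraries, by 4.29 ± 2.32 percentage points (SD, n = 6, two-sided exact sign-flip p = 0.0312, the smallest that 6 libraries can give). They were also higher than the shares of the remaining H3K4me3 regions in 6 of 6 libraries, by 3.12 ± 1.93 percentage points (exact sign-flip p = 0.0312). The same regions were scored in every library, and the 6 libraries join 3 Vehicle and 3 OA libraries. These sign-flip p-values therefore measure neither spread over regions nor repeats of 1 condition. At least 1 of the 6 H3K27me3 libraries had a peak in 238 OA-only regions (16.5%), against 7.09% of all regions. By place, the order away from start sites varied with the regions compared. Within 1 kb of a start site, the OA-only share was 12.1, 11.0 and 10.3% in the Vehicle and 12.3, 5.80 and 1.33% in the OA libraries, against 3.37, 3.23, 3.07, 3.99, 1.49 and 0.429% of the other regions there (neither OA-only nor called in all 6) in the same order. Over 1 kb away it was 2.76, 2.60, 2.28, 3.74, 0.976 and 0.976%, against 4.01, 1.16, 1.44, 10.3, 1.10 and 0.909%, so that OA-only regions were higher in 3 of 6 libraries. Against all regions over 1 kb away, at 7.27, 3.45, 3.41, 12.8, 2.93 and 2.75%, they were lower in 6 of 6. The regions called in all 6 libraries had H3K27me3 peaks in 29.3% of 597 regions over 1 kb from a start site in Vehicle replicate 1. The comparisons over 6 libraries and by place were chosen after the data were seen, and by place no test was made.

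Between Vehicle and OA libraries the groups overlapped when all deposited broad peaks were used. The mean number of OA-only regions with a H3K27me3 peak was 108 ± 9.02 in Vehicle and 65.3 ± 54.9 in OA libraries (SD, n = 3 each, difference −42.3, two-sided exact permutation p = 0.400). OA replicates 1 and 3 lay at opposite ends. Without OA replicate 3, which had 9091 broad peaks against 18801 to 47648 in the other 5 libraries, the difference was −18.2 (exact permutation p = 0.800), and without OA replicate 1 it was −72.2 (exact permutation p = 0.1). With H3K27me3 peaks of a q-value of at most 0.01 the groups did not overlap (difference −31.0, exact permutation p = 0.1, the smallest possible). For the 345 regions called in all 3 OA libraries the numbers were 47, 36 and 39 in Vehicle and 33, 22 and 2 in OA libraries, which did not overlap (difference −21.7, exact permutation p = 0.1, the smallest that 3 against 3 can give).

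Set against the share of regions called in all 6 libraries, to allow for the number of peaks in each library, OA-only regions stood 3.67, 5.40 and 5.59 times higher in Vehicle and 2.5, 3.40 and 1.35 times higher in OA libraries. The groups did not overlap and the difference of −2.47 again had the smallest exact permutation p, 0.1. This ratio pools regions at and away from start sites. In Vehicle replicate 1, shares within 1 kb of a start site were 12.1% for OA-only regions and 0.668% for regions called in all 6. Over 1 kb away they were 2.76% and 29.3%, the other way round, and the order was the same in every library. These 3 against 3 comparisons cannot reach 0.05.

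Single genes show which regions were involved. In 10 OA-only regions all 3 Vehicle H3K27me3 libraries and no OA library had a peak, of 20 such regions in all. They lay at GIPR, VAV3, PPP2R2C, BATF3, FOXI3, CADM3, SUSD4, WNT6 and NFATC2 and 1087 bp from CALY. At WNT6, a WNT ligand, the H3K4me3 folds were 4.97 and 5.15 in OA replicates 1 and 3, and at VAV3 10.9 in both replicates 2 and 3. With at least 2 Vehicle and no OA H3K27me3 peak there were 25 OA-only regions (1.73%), against 73 of all regions (0.390%). The reverse, at least 2 OA and no Vehicle peak, was met by 1 OA-only region and 7 of all regions. In 5 OA-only regions (0.347%) all 6 H3K27me3 libraries had a peak, against 90 of all regions (0.480%). The 5 included RIMS2, a protein of the presynaptic active zone, the bHLH factor gene ATOH8 and IGSF11. The part that peak numbers and depth played in these patterns was not tested.

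**Figure D5:**
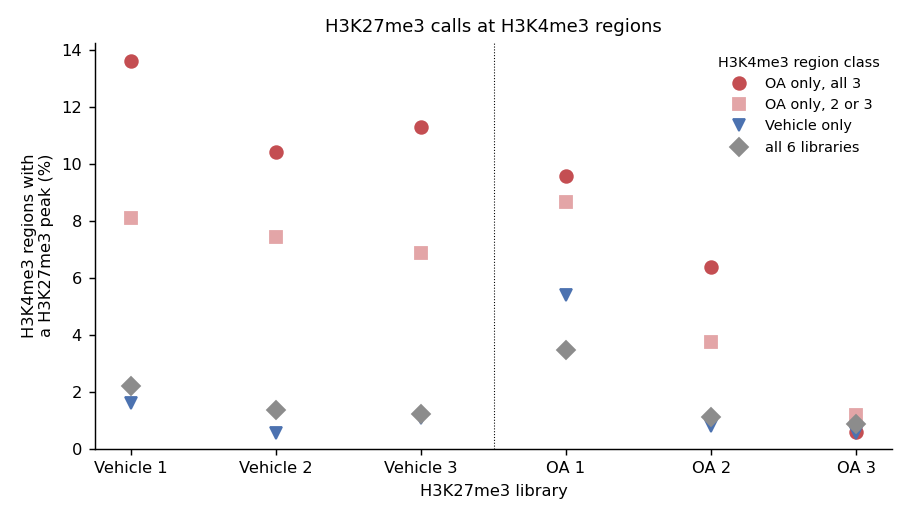
Share of H3K4me3 regions that overlapped a H3K27me3 peak (%, vertical axis) in each of the 3 Vehicle and 3 OA H3K27me3 libraries, by class of H3K4me3 region. The squares, all 1442 OA-only regions, lie above the grey diamonds, regions called in all 6 libraries, in every library, and OA replicate 3 is the lowest for OA-only regions.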

How the data were processed

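CUT&RUN libraries of MCF-10A cells were grouped by the labels: 3 Vehicle and 3 OA libraries each for H3K4me3 and H3K27me3. Another 2 libraries, titled positive control, were taken as untreated H3K4me3, and 2 titled negative control as untreated IgG. Cells were seeded in biological triplicate. Per the submitters' processing notes, the authors called peaks on hg38 with MACS2 2.2.7.1, library by library. The notes and methods also name SICER2, DiffBind 3.9 and ChIPseeker 1.8.6. The methods give SICER2 for H3K27me3, while the deposited H3K27me3 files have the layout of MACS2 broad peaks. The aligner, the handling of duplicates and of reads with several placements, and the use of a control in calling were not given in the sources used here. The deposited files hold, for each peak, the fold enrichment, a ratio of the summit to the local background that is not scaled between libraries. They also hold, as deposited by the authors, −log10 p and −log10 q, which grow with depth. The deposited q-value of the weakest peaks was close to 0.01 in the H3K4me3 and 0.1 in the H3K27me3 files.

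Peaks on chromosomes 1 to 22, X and Y were merged at 1 bp overlap and assigned to GENCODE release 44 start sites (1 kb), exons and introns by the strongest summit. Reads at the summit were solved from fold and −log10 p up to 250, within a relative tolerance of 0.0001. Read totals are unknown, so no floor was computed from depth. H3K27me3 counts were compared over libraries by exact permutation, two-sided. The merging and counting were tested on simulated data: of 200 planted OA-only regions among 8000, 200 were recovered, with 0 Vehicle-only regions. Named genes were the strongest regions called in all 3 OA libraries, ranked by their lowest percentile of −log10 p within a library (10 promoters, 6 distal regions, 6 at lncRNAs), up to 4 per gene list, the densest windows, regions nearest the limit and genes of the study. Other genes named at H3K27me3 patterns, in gene lists and in groups of copies were chosen after their values were seen. The regions and lists were chosen with earlier results of these data known. Some genes and gene groups are not reported here. Python 3.11.15, numpy 2.4.6, pandas 2.3.3, scipy 1.17.1, Biopython 1.88, numba 0.67.0 and matplotlib 3.10.9 were used.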

Additional observations from a re-analysis of the deposited data

How the results depend on the processing

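The number of OA-only regions (1442) ranged from 378 to 2403 when 1 library was left out, the number called in all OA libraries used from 361 to 1172, the share within 1 kb of a start site from 54.7 to 74.3% and the median length from 528 to 666 bp. The lowest count was without OA replicate 3 and the highest without Vehicle replicate 1. With equal numbers of strongest peaks the count was 902, the share 72.6% and the length 736 bp. At a q-value of at most 1e-05 the share was 63.7% and the length 655 bp, and where peaks had to cover at least 50% of a region 63.1% and 685 bp. Joining peaks up to 1000 bp apart gave 629 bp. The share was 67.0% within 3 kb and 42.9% for protein-coding start sites alone. Of the 22 strongest named regions, 18 stayed OA-only in all 14 settings, and MTMR11, ENSG00000290692, ENSG00000272679 and ENSG00000284624 in 13. Chosen after seeing the data, removal of regions over 500 kb from a start site gave 1426, the stricter q-value without OA replicate 1 gave 1094, removal of mostly repeated sequence 1363, and balanced subsets 409 to 1909. The order of OA-only and Vehicle-only counts turned without OA replicate 3 (378 against 711) and without both replicates 3 (409 against 595). The H3K27me3 difference of −42.3 ranged from −72.2 to −18.2 with 1 library left out, and the difference in ratio from −3.08 to −1.94. It was −31.0 at a q-value of at most 0.01, where the groups did not overlap (exact permutation p = 0.1), −24.0 with equal peak numbers and −37.7 with at least 200 bp shared, with exact permutation p-values of 0.300 and 0.400. Same-numbered libraries deviated together in few pairs (correlations −0.23 to 0.14 over regions for H3K4me3 and 0.0082 to 0.11 for H3K27me3), so the numbers were not taken as pairing. With a replicate block the exact sign-flip p-value was 0.500 for the difference of −42.3 and 0.25 for the ratio difference of −2.47, which is the smallest that 3 pairs can give. Peaks without read totals limit every absence of a call to what each library's depth could show.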
